A study of Homo sapiens with 6 samples.

Results

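The genes described here are 36 hypoxia-induced genes that act outside glycolysis and acid handling. They were listed by symbol for their known response to low oxygen, and all 36 were found among the 60675 genes in the count tables. The rule itself uses no measured value, but the list was chosen with earlier results of these data known. RNA-seq was performed on PLC/PRF/5 cells, established from a human hepatocellular carcinoma (HCC), with 3 control libraries and 3 libraries after knockdown of MTR4 (MTR4 KD). Both groups were cultured in DMEM with serum, no label names an exposure to low oxygen, and the labels give no treatment other than the knockdown. The study's methods describe 1 shRNA target sequence for MTR4 and both a stable and a doxycycline-inducible vector. Its results text describes the RNA-seq as HCC cells before and after induction. The legend of its expression figure names cells with the inducible MTR4 shRNA, before and after doxycycline. Its supplement used more than 1 MTR4 shRNA in other assays. The labels say only control, not whether these were uninduced cells or cells with a scramble shRNA. If they were the cells before doxycycline that the legend names, doxycycline and the knockdown cannot be told apart in these libraries. The paper reports no effect of doxycycline on its glycolytic genes in cells with an inducible scramble shRNA, a control that did not cover the genes described here. Nothing in the labels says that the replicates were separate cultures, and the p-values then measure only the spread between these libraries, which may be technical.

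In normal oxygen, prolyl hydroxylases of the EGLN family mark the alpha subunits of the hypoxia-inducible factors (HIF) for destruction through VHL. When oxygen falls, HIF1A or EPAS1 escapes this mark, pairs with ARNT and binds short DNA sites with the core letters ACGTG or GCGTG near its target genes. Glycolytic enzymes are the best known targets, and those described here serve other arms of the response: signals to blood vessels, collagen maturation, removal of mitochondria, storage of lipid and glycogen, chromatin and transcription, and growth control. MTR4 is an RNA helicase that delivers nuclear RNAs to the exosome for trimming or decay.

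The MTR4 gene (MTREX, ENSG00000039123) was measured first. Its expression was 72.2, 87.4 and 74.4 CPM (read counts relative to the TMM-scaled library size) in control libraries 1, 2 and 3 and 44.6, 48.8 and 44.1 CPM in MTR4 KD libraries 1, 2 and 3. The groups did not overlap, and MTR4 fell by 0.82 on the log2 scale (SE 0.054, adjusted p = 3.62e-07 by edgeR's quasi-likelihood test), a fall of 43.4%.

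Reads counted on genes numbered 60686786 to 72708682 in each library. The libraries fell into 2 classes by the share of reads with a non-unique alignment, which was 34.7% to 37.5% in control 1, control 3 and MTR4 KD 3 and 14.8% to 18.2% in control 2, MTR4 KD 1 and MTR4 KD 2. This library class was read from the count tables, not from a label, and entered the test as a term beside condition. The coefficient of variation between libraries that edgeR estimated was 0.0573 with the class and 0.175 with condition as the only term. All 11 hepatocyte and liver tumor markers were expressed, such as ALB at 739.8 to 953 CPM over the 6 libraries and AFP at 37.8 to 44.3 CPM. The 6 matched markers of leukocytes, endothelium and stroma summed to 5.82 to 10.3 CPM per library (6.57, 7.97 and 9.57 in the control and 5.82, 6.51 and 10.3 in the MTR4 KD libraries). CD68 was at 0 in 5 of the 6 libraries, but 100% of its exon sequence lies under exons of other genes, so its reads may not have been counted. The leukocyte markers PTPRC and CD3E were highest in control 3 (1.81 and 0.514 CPM) and MTR4 KD 3 (0.538 and 0.408 CPM). In the other libraries they reached at most 0.130 and 0.0162 CPM. The part of these 6 markers in the results below was not tested.

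Most of the non-glycolytic hypoxia targets were lower after MTR4 KD. Of the 36 genes, 35 had enough counts to be tested, and 25 of these (71.4%) were lowered at an adjusted p under 0.05 with the library class in the fit, against 10.8% of all 18075 tested genes. None was raised in that fit of edgeR, against 9.43% of all genes, and the other 10 did not pass. At an unadjusted p under 0.05, 28 members were lowered and 1 was raised (FAM162A), and DESeq2 with the same terms raised none after adjustment and 1 before. These unadjusted counts were not made over all genes, so they have no share to be set beside. The median log2 difference was −0.39 over the 35 genes and 0.01 over all tested genes. A fall of more than 2-fold was found for 6 members, namely BHLHE40, DDIT4, ANKRD37, PLOD2, HILPDA and PPP1R3C, against 1.24% of all genes. In 24 members every MTR4 KD library lay below every control library, which was the case for 12.6% of all genes, and FAM162A alone was higher in every MTR4 KD library. RNA from these cells was measured in bulk, so fewer cells that express a gene and less of its RNA per cell cannot be told apart.

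With condition as the only term, edgeR lowered 16 members, against 2.12% of all genes, and DESeq2 lowered 22, against 770 of 18075 genes. Neither raised any member even at an unadjusted p under 0.05, a count that was not made over all genes. After adjustment edgeR raised 1.48% of all genes in this fit and DESeq2 raised 593 of 18075. The 9 that lost the call in edgeR were EFNA1, P4HA1, LOX, ANKRD37, PLIN2, INSIG2, VLDLR, TMEM45A and PPFIA4, with adjusted p-values of 0.0801 to 0.677 from edgeR. In DESeq2 only EFNA1, INSIG2 and TMEM45A of these were not called, so the loss depended on the test used. Scaled to ACTB, a cytoskeletal gene whose own level fell by 0.16, the median over all genes moved to 0.16 and that over the members to −0.23, with 21 members lowered and 2 raised (ANGPTL4 and FAM162A). The calls over all genes then changed from 1944 lowered and 1705 raised to 778 lowered and 5414 raised.

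**Figure D1:**
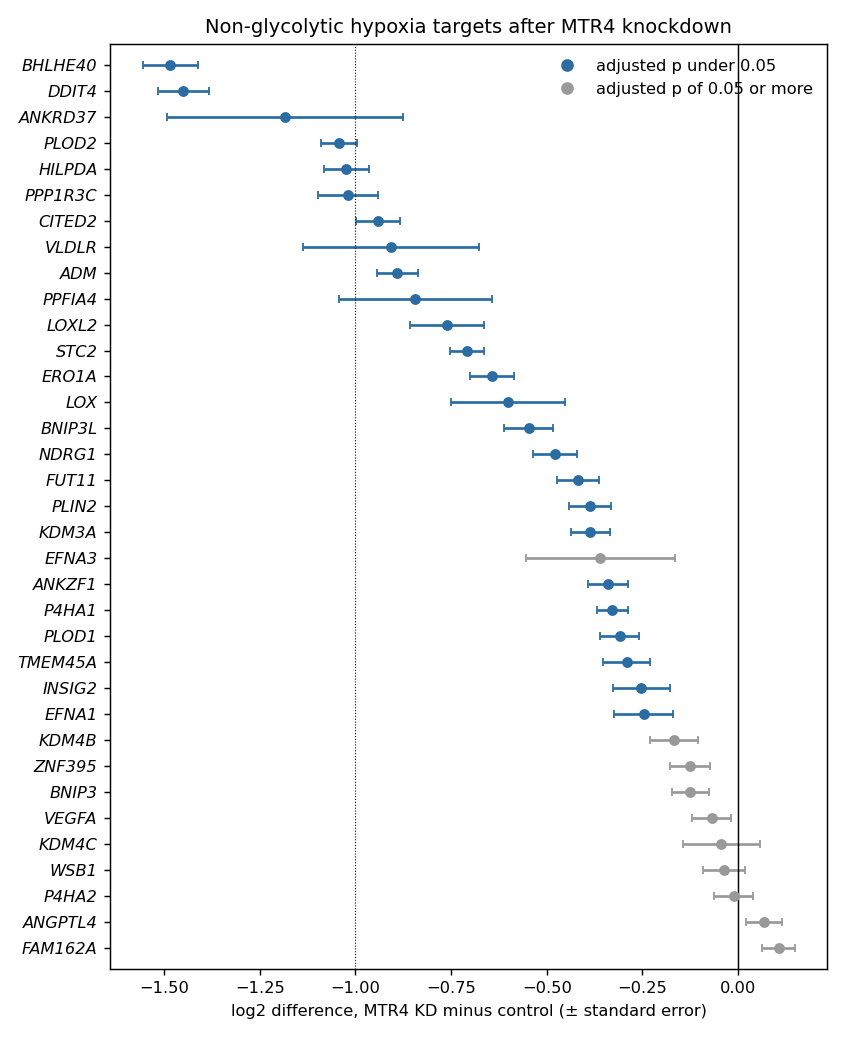
Log2 difference of each of the 35 tested genes, MTR4 KD minus control, on the horizontal axis, with a dotted line at a 2-fold fall. Bars are ± 1 standard error, derived from the F statistic of the edgeR fit with the library class. Blue points passed an adjusted p of 0.05, and all 25 of them lie below 0 and stayed below 0 in every scaling tried. The 10 grey points lie between −0.36 (EFNA3) and 0.11 (FAM162A), and 6 of them changed sign when scaled to ACTB.

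The promoters of the members with the largest falls are shown beside those of members whose level hardly differed, since a HIF core site is the feature that these genes are known for. RefSeq gave a window of 250 bases before to 50 bases after a start site for 27 of the 36 members, at the outermost start of the gene for 24 of them. The letters ACGTG, searched on both strands so that CACGT counts as well, occurred in the windows of 18 of these 27 members (66.7%), in 21.6% of the windows of 27305 genes and in 9 of 20 (45.0%) glycolytic and acid-handling targets. They occurred in 12 of 19 lowered members (63.2%) and in 6 of 8 members that did not pass the test (75.0%). The letters GCGTG or CACGC occurred in 17 of 27 members (63.0%) and in 36.3% of all windows. The printed part is the 250 bases before the start site, 5′ to 3′ on the strand of the gene and on GRCh38.p14, and capitals mark ACGTG or CACGT, with overlapping matches in the palindrome CACGTG. The first 4 belong to the lowered members with the largest falls that had a window: BHLHE40 at chr3:4979187-4979436 (plus strand), DDIT4 at chr10:72273674-72273923 (plus strand), ANKRD37 at chr4:185396591-185396840 (plus strand) and PLOD2 at chr3:146161185-146161434 (minus strand).
BHLHE40: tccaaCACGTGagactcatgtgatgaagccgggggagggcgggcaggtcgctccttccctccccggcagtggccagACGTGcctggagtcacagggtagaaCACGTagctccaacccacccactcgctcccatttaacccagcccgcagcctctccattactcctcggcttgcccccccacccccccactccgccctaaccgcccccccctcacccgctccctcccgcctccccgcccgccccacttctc
DDIT4: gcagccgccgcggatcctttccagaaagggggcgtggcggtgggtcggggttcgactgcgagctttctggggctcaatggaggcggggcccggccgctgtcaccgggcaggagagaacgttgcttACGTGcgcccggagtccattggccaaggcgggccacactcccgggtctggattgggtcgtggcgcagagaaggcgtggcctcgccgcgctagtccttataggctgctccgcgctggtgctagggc
ANKRD37: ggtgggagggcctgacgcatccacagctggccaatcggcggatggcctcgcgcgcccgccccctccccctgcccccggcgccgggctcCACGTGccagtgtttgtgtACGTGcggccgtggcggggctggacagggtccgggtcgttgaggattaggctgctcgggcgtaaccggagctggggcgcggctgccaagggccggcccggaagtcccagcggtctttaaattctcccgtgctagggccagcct
PLOD2: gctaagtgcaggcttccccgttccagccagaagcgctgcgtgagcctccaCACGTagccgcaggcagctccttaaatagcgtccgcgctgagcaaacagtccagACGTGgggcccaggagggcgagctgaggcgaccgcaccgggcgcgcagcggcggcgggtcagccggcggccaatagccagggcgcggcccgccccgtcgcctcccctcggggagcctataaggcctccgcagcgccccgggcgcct

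The next 3 belong to the members with the smallest differences, P4HA2 at chr5:132227092-132227341 (minus strand), WSB1 at chr17:27293864-27294113 (plus strand) and KDM4C at chr9:6757723-6757972 (plus strand). The windows of P4HA2 and KDM4C are at the start of a shorter transcript within the gene, not at its outermost start.
P4HA2: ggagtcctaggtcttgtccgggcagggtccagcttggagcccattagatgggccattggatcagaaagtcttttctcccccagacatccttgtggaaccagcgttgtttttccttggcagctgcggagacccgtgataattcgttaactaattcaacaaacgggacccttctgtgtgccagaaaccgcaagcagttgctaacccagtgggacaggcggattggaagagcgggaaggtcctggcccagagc
WSB1: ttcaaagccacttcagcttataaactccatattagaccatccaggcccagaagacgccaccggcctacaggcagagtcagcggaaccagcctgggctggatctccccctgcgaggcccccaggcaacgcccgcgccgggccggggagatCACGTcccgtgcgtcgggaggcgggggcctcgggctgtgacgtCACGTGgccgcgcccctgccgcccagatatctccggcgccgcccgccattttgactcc
KDM4C: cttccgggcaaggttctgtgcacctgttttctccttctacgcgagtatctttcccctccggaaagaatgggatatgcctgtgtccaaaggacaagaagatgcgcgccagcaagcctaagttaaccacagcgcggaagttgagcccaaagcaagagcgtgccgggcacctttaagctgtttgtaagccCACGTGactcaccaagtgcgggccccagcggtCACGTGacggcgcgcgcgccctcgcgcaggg

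Before the start site, ACGTG or CACGT was found 4 times for BHLHE40, 1 time for DDIT4, 3 times for ANKRD37 and 2 times for PLOD2. Each palindrome CACGTG counts as 2 overlapping matches here, so the number of separate sites can be smaller. Among the members that hardly differed, P4HA2 had no match, WSB1 had 3 and KDM4C had 4. A match describes the letters only and is not evidence of a bound site, and a window without a match says nothing about sites elsewhere.

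Among the genes for secreted factors and ephrins, 3 of 6 tested members were lowered and the best known one, VEGFA, did not pass the test. ADM encodes adrenomedullin, a peptide that widens blood vessels (ENSG00000148926, chr11:10305073-10307397 on GRCh38). It had 47.5, 47.5 and 47.2 CPM in control libraries 1 to 3 and 27.0, 25.1 and 25.1 CPM in MTR4 KD libraries 1 to 3. All MTR4 KD libraries lay well below the control libraries, and ADM fell by 0.89 on the log2 scale (SE 0.054, edgeR adjusted p = 1.66e-07), a fall of 46.1%. STC2, a secreted glycoprotein of the stanniocalcin family, had 83.8, 82.7 and 86.1 CPM in the control and 52.3, 51.3 and 50.8 CPM in the MTR4 KD libraries. The spread within each group was small beside the gap, and STC2 fell by 0.71 (SE 0.044, edgeR adjusted p = 1.91e-07). Its relative STC1 was hardly detected, with 1, 16 and 0 reads in the control and 4, 1 and 8 reads in the MTR4 KD libraries, and did not enter the test.

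VEGFA, the main growth factor for blood vessels, had 88.0, 74.4 and 89.1 CPM in the control and 65.7, 65.8 and 91.1 CPM in the MTR4 KD libraries. The groups overlapped because MTR4 KD 3 was the highest of all 6 libraries. The log2 difference of VEGFA was −0.07 (SE 0.050, edgeR adjusted p = 0.378), 0.04 among the libraries with more non-unique reads and −0.18 among those with fewer. It ranged from −0.17 to 0.04 when 1 library was left out, so its direction was not fixed by these data. ANGPTL4, a secreted inhibitor of lipoprotein lipase, had 207, 151 and 209 CPM in the control and 166, 172 and 205 CPM in the MTR4 KD libraries, with overlapping groups. Its log2 difference was 0.07 (edgeR adjusted p = 0.345) with the library class and −0.06 without it.

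The ephrins are membrane-bound ligands of the Eph receptors. EFNA1 lay between 21.8 and 27.4 CPM in the control and between 19.2 and 21.3 CPM in the MTR4 KD libraries, a log2 difference of −0.25 (edgeR adjusted p = 0.0394). That call was lost without control 1 (−0.20, adjusted p = 0.114 by edgeR), without control 3 (−0.25, 0.0838), without MTR4 KD 1 (−0.23, 0.121) and without MTR4 KD 3 (−0.09, 0.566). EFNA3 followed the library class more than the condition, with 3.31, 1.04 and 4.84 CPM in the control and 0.945, 0.883 and 2.90 CPM in the MTR4 KD libraries. The 3 libraries with more non-unique reads held the 3 highest values. Exons of other genes cover 46.9% of the exon sequence of EFNA3, so its reads may have been set aside as ambiguous or counted for a neighbor.

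The genes for collagen and matrix enzymes were lowered in 6 of 7 cases. PLOD2 (ENSG00000152952, chr3:146069440-146161184) encodes a lysyl hydroxylase that prepares collagen for stable cross-links. It had 106, 96.6 and 103 CPM in control libraries 1 to 3 and 50.2, 48.4 and 48.1 CPM in MTR4 KD libraries 1 to 3. PLOD2 was about the same in all 3 MTR4 KD libraries and fell 2.06-fold, a log2 difference of −1.04 (SE 0.048, edgeR adjusted p = 1.86e-08). Its paralog PLOD1 had 404, 397 and 440.3 CPM in the control and 327, 346 and 324 CPM in the MTR4 KD libraries. The groups did not overlap either, but the fall of PLOD1 was smaller at 0.31 (SE 0.051, edgeR adjusted p = 0.000921), and scaled to ACTB it did not pass (−0.15, 0.0629).

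LOXL2 and LOX encode amine oxidases that cross-link collagen and elastin. LOXL2 had 7.57, 7.97 and 8.27 CPM in the control and 4.43, 4.72 and 4.81 CPM in the MTR4 KD libraries and fell by 0.76 (SE 0.096, edgeR adjusted p = 0.000122). LOX had 3.49, 2.35 and 3.65 CPM in the control and 1.56, 1.69 and 2.23 CPM in the MTR4 KD libraries. The groups of LOX stood apart by little, with 2.35 CPM in control 2 and 2.23 CPM in MTR4 KD 3. It fell by 0.60 (SE 0.15, edgeR adjusted p = 0.0120), a call that was lost without MTR4 KD 3 (−0.51, 0.119).

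ERO1A is the oxidase of the endoplasmic reticulum that supplies disulfide bonds to secreted proteins such as procollagen. It had 274, 243 and 238 CPM in the control and 162, 146 and 165 CPM in the MTR4 KD libraries and fell by 0.64 (SE 0.058, edgeR adjusted p = 5.67e-06). P4HA1 and P4HA2 encode catalytic subunits of collagen prolyl 4-hydroxylase. P4HA1 had 113, 125 and 117 CPM in the control and 98.4, 102 and 91.5 CPM in the MTR4 KD libraries, a log2 difference of −0.33 (SE 0.040, edgeR adjusted p = 9.42e-05). P4HA2 had 88.8, 103 and 99.3 CPM in the control and 98.3, 107 and 93.4 CPM in the MTR4 KD libraries, which overlapped. Its log2 difference was −0.01 (SE 0.052, edgeR adjusted p = 0.905) and took both signs across the scalings.

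Of the 3 mitochondrial members, 1 was lowered. BNIP3L and BNIP3 encode receptors of the outer mitochondrial membrane that mark mitochondria for autophagy. BNIP3L had 39.8, 37.0 and 36.3 CPM in the control and 27.6, 26.1 and 24.5 CPM in the MTR4 KD libraries, with a gap between the groups, and fell by 0.55 (SE 0.064, edgeR adjusted p = 6.12e-05). BNIP3 had 111, 88.0 and 101 CPM in the control and 84.2, 78.1 and 96.7 CPM in the MTR4 KD libraries. Its groups overlapped, since MTR4 KD 3 was above control 2, and its log2 difference was −0.12 (SE 0.049, edgeR adjusted p = 0.0910). FAM162A, a mitochondrial protein of the hypoxic cell death response, had 107, 117 and 108 CPM in the control and 119, 125 and 120.0 CPM in the MTR4 KD libraries. It was the only tested member above its control range in each MTR4 KD library, and its log2 difference of 0.11 (SE 0.043, edgeR adjusted p = 0.101) did not pass unless expression was scaled to ACTB (0.26, adjusted p = 0.00137).

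All 5 lipid and glycogen members were lowered. HILPDA (ENSG00000135245, chr7:128455878-128458418) encodes a lipid droplet protein that inhibits the triglyceride lipase PNPLA2. It had 126, 134 and 123 CPM in the control and 72.1, 74.1 and 55.0 CPM in the MTR4 KD libraries. Every MTR4 KD library was far below the control range, with MTR4 KD 3 lowest, and HILPDA fell 2.03-fold (log2 difference −1.02, SE 0.059, edgeR adjusted p = 1.07e-07). PPP1R3C, which targets protein phosphatase 1 to glycogen and thereby promotes glycogen synthesis, had 18.9, 19.3 and 16.4 CPM in the control and 9.50, 9.70 and 8.64 CPM in the MTR4 KD libraries. It fell 2.03-fold (log2 difference −1.02, SE 0.078, edgeR adjusted p = 1.34e-06) and by nearly the same amount in both library classes (−1.02 and −1.01).

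VLDLR, a receptor that takes up triglyceride-rich lipoproteins, was expressed at a low level, with 1.51, 1.60 and 1.51 CPM in the control and 0.929, 1.06 and 0.669 CPM in the MTR4 KD libraries. The groups of VLDLR did not overlap and it fell by 0.91 (SE 0.23, edgeR adjusted p = 0.0144), a call that was lost without MTR4 KD 3 (−0.67, 0.135). PLIN2, the coat protein of lipid droplets, lay between 56.8 and 63.1 CPM in the control and between 43.6 and 51.5 CPM in the MTR4 KD libraries and fell by 0.39 (SE 0.056, edgeR adjusted p = 0.000317). INSIG2, which holds the sterol sensor SCAP in the endoplasmic reticulum, had the smallest fall of the group at 0.25 (edgeR adjusted p = 0.0291), with overlapping groups. The call of INSIG2 was lost without control 1 (−0.22, 0.0797), without control 2 (−0.28, 0.0701), without MTR4 KD 2 (−0.21, 0.0835) and without MTR4 KD 3 (−0.22, 0.162).

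Among the chromatin and transcription genes, 4 of 7 were lowered. BHLHE40 (ENSG00000134107, chr3:4979437-4985323), a repressor that binds E-box sites and takes part in the circadian clock, had the largest fall of all members. It had 86.3, 73.9 and 83.7 CPM in control libraries 1 to 3 and 31.1, 28.4 and 26.7 CPM in MTR4 KD libraries 1 to 3. Even the highest MTR4 KD library was far below the lowest control library, and BHLHE40 fell 2.80-fold, a log2 difference of −1.48 (SE 0.072, edgeR adjusted p = 2.20e-08). CITED2, which competes with HIF1A for the coactivators CREBBP and EP300, had 99.7, 78.6 and 115 CPM in the control and 43.1, 40.8 and 54.7 CPM in the MTR4 KD libraries. The values of CITED2 varied with the library class in both groups, without overlap between groups, and it fell by 0.94 (SE 0.058, edgeR adjusted p = 1.91e-07).

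ANKRD37 (ENSG00000186352, chr4:185396841-185400723), an ankyrin repeat protein, was one of the least expressed members, with 80, 98 and 90 reads in the control and 60, 36 and 28 reads in the MTR4 KD libraries. These counts gave 1.30, 1.35 and 1.49 CPM in the control and 0.978, 0.539 and 0.457 CPM in the MTR4 KD libraries. ANKRD37 fell 2.27-fold (log2 difference −1.18, SE 0.31, edgeR adjusted p = 0.0159), with a wide error, and 54.7% of its exon sequence lies under exons of another gene, UFSP2. The call was lost without control 3 (−1.10, 0.0522) and without MTR4 KD 3 (−0.83, 0.137).

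KDM3A, KDM4B and KDM4C encode demethylases of histone H3 lysines, enzymes that need oxygen. KDM3A lay between 44.4 and 45.2 CPM in the control and between 33.4 and 35.5 CPM in the MTR4 KD libraries and fell by 0.39 (SE 0.051, edgeR adjusted p = 0.000172). KDM4B had a log2 difference of −0.17 (edgeR adjusted p = 0.0800), and without control 2 it was −0.32 (0.00426). KDM4C had one of −0.04 (edgeR adjusted p = 0.812). ZNF395, a zinc finger factor, had groups that did not overlap, with values between 32.8 and 33.3 CPM in the control and between 29.7 and 30.7 CPM in the MTR4 KD libraries. The log2 difference of ZNF395 was only −0.13 (SE 0.052, edgeR adjusted p = 0.111) and changed sign when scaled to ACTB. Exons of other genes cover 42.4% of the exon sequence of ZNF395, 28.3% of FUT11, 24.9% of NDRG1, 18.0% of HILPDA and 16.0% of FAM162A. Whether reads were counted by strand is not stated, so reads in such overlaps may have been set aside as ambiguous or counted for either gene. Ambiguous reads made up 5.89% to 6.37% of all reads in the libraries with more non-unique reads and 7.79% to 8.29% in those with fewer.

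In the growth and stress control group, DDIT4 (ENSG00000168209, chr10:72273924-72276036), an inhibitor of mTORC1 signaling also known as REDD1, had 44.7, 48.7 and 51.4 CPM in control libraries 1 to 3 and 17.0, 18.4 and 17.7 CPM in MTR4 KD libraries 1 to 3. The MTR4 KD libraries lay close together, far below the control range, and DDIT4 fell 2.73-fold (log2 difference −1.45, SE 0.067, edgeR adjusted p = 1.86e-08). The fall of DDIT4 was 1.44 among libraries with more and 1.46 among libraries with fewer non-unique reads. NDRG1, a stress-responsive protein whose messenger RNA is a common marker of hypoxia, lay between 292 and 323 CPM in the control and between 203 and 240.1 CPM in the MTR4 KD libraries. It fell by 0.48 (SE 0.058, edgeR adjusted p = 7.90e-05). WSB1, a substrate adaptor of a ubiquitin ligase, had overlapping groups and a log2 difference of −0.04 (SE 0.056, edgeR adjusted p = 0.702).

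The other 4 members were all lowered. PPFIA4, a liprin scaffold protein, had 3.76, 3.18 and 2.26 CPM in the control and 1.65, 1.51 and 1.89 CPM in the MTR4 KD libraries. Its groups did not overlap although the control libraries spread widely, and it fell by 0.84 (SE 0.20, edgeR adjusted p = 0.00972), a call that was lost without control 2 (−0.67, 0.117). FUT11, of the fucosyltransferase family, fell by 0.42 (SE 0.056, edgeR adjusted p = 0.000180), and ANKZF1, which releases stalled nascent chains from ribosomes, fell by 0.34 (SE 0.052, edgeR adjusted p = 0.000499). Neither overlapped between groups. TMEM45A, a transmembrane protein, had 29.0, 36.1 and 29.5 CPM in the control and 32.1, 31.2 and 22.1 CPM in the MTR4 KD libraries. These values of TMEM45A overlapped, and its fall of 0.29 (edgeR adjusted p = 0.00504) was not called with condition as the only term (−0.15, 0.677) or without MTR4 KD 3 (−0.18, 0.128).

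**Figure D2:**
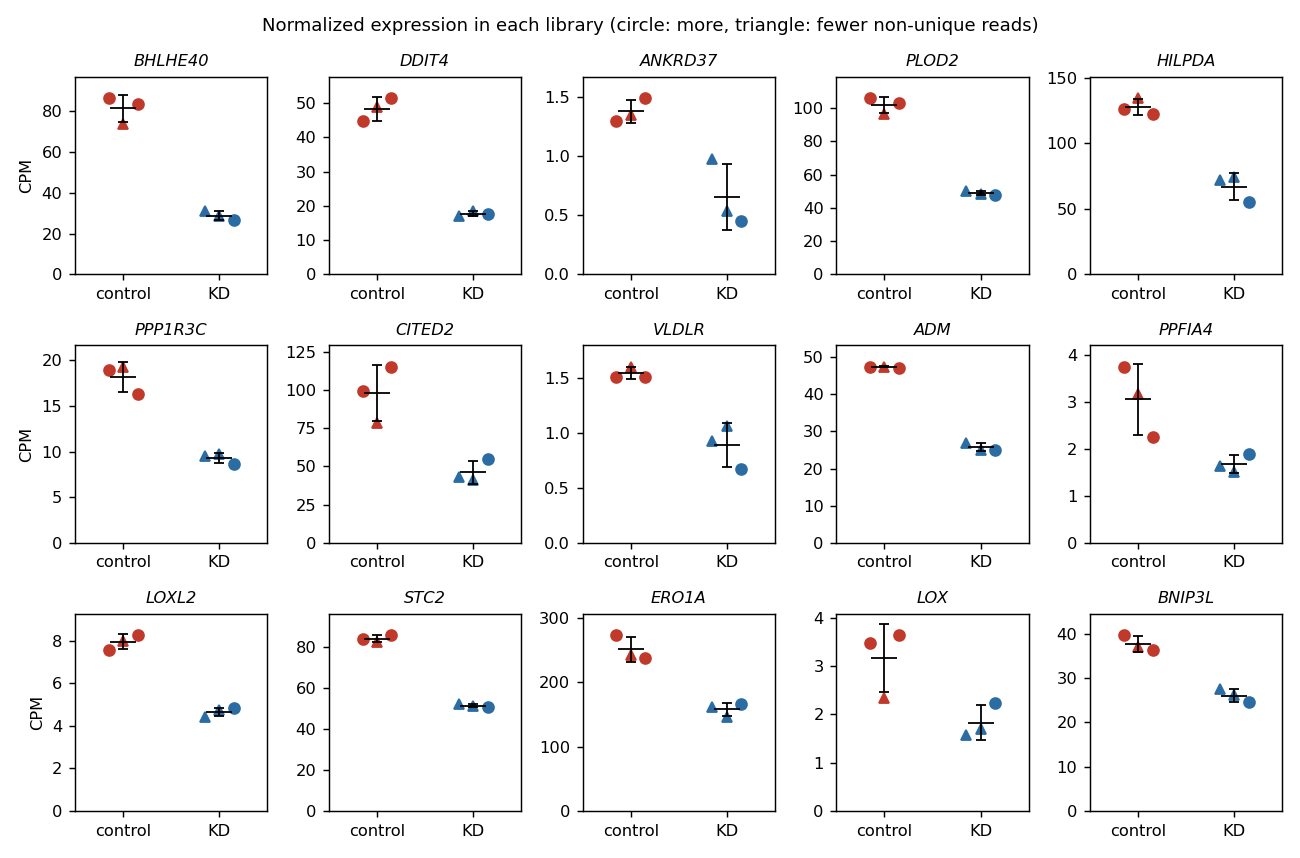
CPM of the 15 lowered members with a log2 fall of at least 0.5, one panel each, in every library (red for control, blue for MTR4 KD, circles and triangles for libraries with more and fewer non-unique reads). Black bars give the mean ± SD of 3 libraries. In all 15 panels every MTR4 KD library lies below every control library, with the narrowest gap for LOX.

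Abundant members were found among those with large and with small differences. Per kilobase of transcript, the control level was highest for PLOD1 (139 CPM per kilobase), ANGPTL4 (101), NDRG1 (101) and HILPDA (93.6), which ranged from no called difference to a 2-fold fall. Among the tested members it was lowest for VLDLR (0.167 CPM per kilobase), PPFIA4 (0.471) and LOX (0.623), and these had wide standard errors of 0.15 to 0.23 on the log2 difference. BHLHE40 (25.8 CPM per kilobase), PLOD2 (27.2) and VEGFA (23.2) had similar control levels and log2 differences of −1.48, −1.04 and −0.07.

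The fall was then compared between the 2 library classes, which share no library. Among the libraries with more non-unique reads (control 1 and 3 against MTR4 KD 3) the median log2 difference of the 35 members was −0.45, and among those with fewer (control 2 against MTR4 KD 1 and 2) it was −0.36. In 30 of 35 members the difference was negative in both classes, which was the case for 6074 of all 18075 tested genes. Pearson's r of the members' differences between the classes was 0.904 (Spearman's rho 0.899, n = 35 genes), beside a Pearson's r of 0.279 over all tested genes. Of all tested genes 14426 were not called, beside 10 of the members, so the 2 values of Pearson's r are not like for like. Genes are not independent replicates, and this is a description of these libraries. Taken 1 at a time against the control libraries of its class, MTR4 KD 1, 2 and 3 had median log2 differences of −0.35, −0.34 and −0.45, with 33, 32 and 31 of 35 members below. These counts per library were not made over all genes.

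The knockdown effect on BHLHE40 was −1.67 in the class with more and −1.31 in the class with fewer non-unique reads, and that on HILPDA was −1.18 and −0.88. No member passed an adjusted p of 0.05 for the interaction of condition and class in edgeR, against 0.974% of all genes. At an unadjusted p under 0.05 there were 7 such members of 35, against 11.1% of all genes, and the lowest adjusted p was 0.109 for HILPDA.

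**Figure D3:**
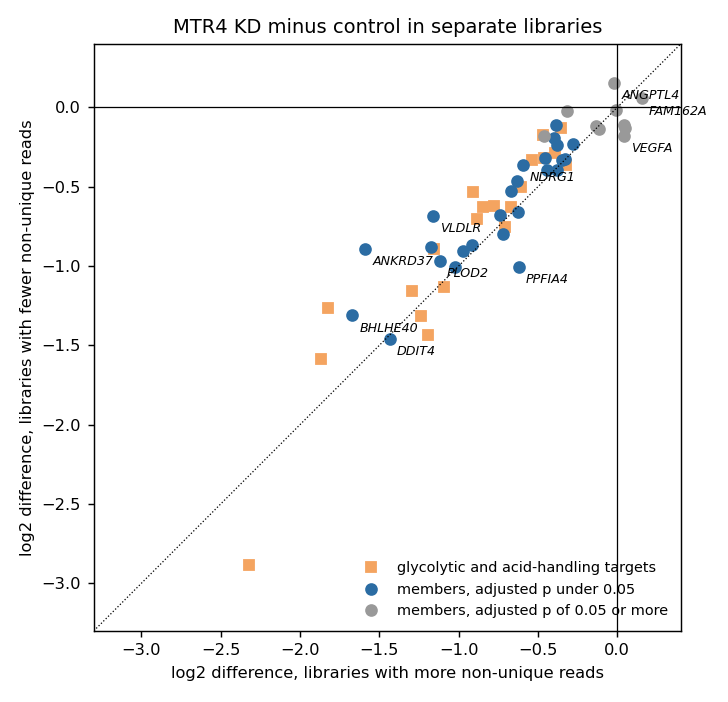
Log2 difference of each gene, MTR4 KD minus control, among libraries with more non-unique reads (horizontal axis) and among libraries with fewer (vertical axis), with a dotted line of equality. Circles are the tested members and squares the glycolytic and acid-handling targets. Most members lie near the line and below 0 on both axes, and VEGFA, ANGPTL4 and FAM162A lie near the origin.

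The members include 7 pairs of paralogs with related roles, and in 3 of them the ratio of the paralogs differed between the groups without overlap. No such count was made over other pairs of genes, so 3 of 7 has no share to be set beside. For each of 7 pairs the log2 ratio of the 2 read counts was compared between groups with a two-sided exact permutation test, whose smallest possible p with 3 libraries against 3 is 0.1. The PLOD1 to PLOD2 ratio was 1.93, 2.04 and 2.095 in the control and 2.70, 2.84 and 2.75 in the MTR4 KD libraries. The groups did not overlap and the difference was 0.74, with 0.74 and 0.73 in the 2 library classes. The P4HA1 to P4HA2 ratio was 0.35, 0.28 and 0.24 in the control and 0.0014, −0.068 and −0.030 in the MTR4 KD libraries, a difference of −0.32 without overlap, with −0.32 and −0.31 in the 2 classes. The BNIP3 to BNIP3L ratio was 1.47, 1.25 and 1.48 in the control and 1.61, 1.58 and 1.98 in the MTR4 KD libraries, a difference of 0.32, also without overlap, with 0.50 and 0.35 in the 2 classes.

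These 3 pairs reached the smallest exact p of 0.1 (0.233 after Benjamini-Hochberg adjustment over the 7 pairs), which is above 0.05 by design. PLOD2, P4HA1 and BNIP3L were thus lower relative to PLOD1, P4HA2 and BNIP3 in every MTR4 KD library than in any control library, in a design that cannot pass the test. The other pairs overlapped between groups. The LOX to LOXL2 ratio differed by −0.01 (exact p = 1), KDM4B to KDM4C by −0.23 (exact p = 0.4), EFNA1 to EFNA3 by 0.63 (exact p = 0.6) and STC1 to STC2 by 1.48 (exact p = 0.5), the last on few STC1 reads. This test has no term for the library class. Within the 2 classes, that with more non-unique reads first, the difference was 0.045 and 0.27 for LOX to LOXL2, −0.36 and 0.11 for KDM4B to KDM4C, 0.075 and 0.069 for EFNA1 to EFNA3 and 4.03 and −1.81 for STC1 to STC2.

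**Figure D4:**
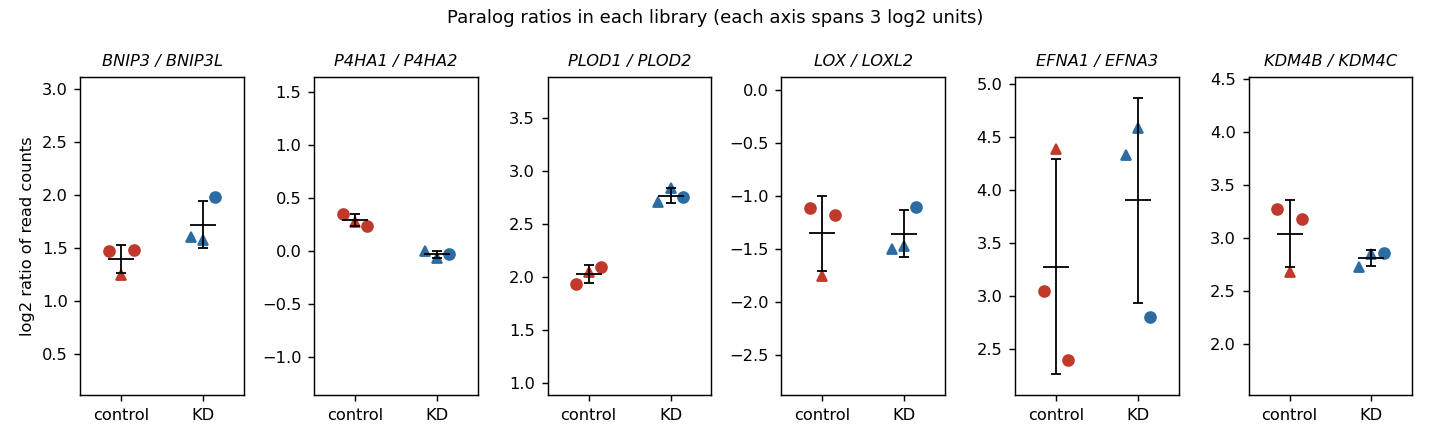
Log2 ratio of read counts of 6 paralog pairs in each library (red for control, blue for MTR4 KD, circles and triangles for libraries with more and fewer non-unique reads), with the mean ± SD of 3 libraries. Each vertical axis spans 3 log2 units. The groups are apart for BNIP3 to BNIP3L, P4HA1 to P4HA2 and PLOD1 to PLOD2 and overlap in the other 3 panels, and the STC1 pair is not drawn because of its few reads.

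Finally, the members were set beside related lists in the same libraries. All 21 glycolytic and acid-handling targets were lowered, with a median log2 difference of −0.73, led by CA9 (−2.61), ALDOC (−1.72), CA12 (−1.52) and ENO2 (−1.32), so the members' median of −0.39 was the smaller one. Of 17 tested other hypoxia-induced genes, 11 were lowered and 2 raised, with a median of −0.41. They included the hormone gene EPO (−1.58), NT5E (−1.21), which forms adenosine from AMP at the cell surface, and the growth factor binding proteins IGFBP1 (−1.35) and IGFBP3 (−1.29). EPO had few reads, with 66, 54 and 38 in the control and 19, 15 and 16 in the MTR4 KD libraries. With condition as the only term, 17 of the 21 glycolytic and acid-handling targets were lowered, as were 5 of the 17 other hypoxia-induced genes. No test between these lists was made.

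Among 10 hypoxia factors and oxygen sensors, 5 were lowered, with a median of −0.13. EGLN3, a prolyl hydroxylase that is itself a HIF target, had 6.28, 5.64 and 7.30 CPM in the control and 2.62, 2.05 and 2.28 CPM in the MTR4 KD libraries and a log2 difference of −1.41 (edgeR adjusted p = 1.37e-05). EPAS1 had one of −0.28 (edgeR adjusted p = 0.000545), a call that was lost with condition as the only term (0.0779) and relative to ACTB (−0.13, 0.115). HIF1A, named after its values were seen, had 78.1, 77.7 and 79.3 CPM in the control and 73.2, 71.7 and 70.6 CPM in the MTR4 KD libraries, with a difference of −0.13 (edgeR adjusted p = 0.0474) that did not pass with condition as the only term and turned to 0.03 when scaled to ACTB. HIF3A (−1.60) was below 1 CPM in every library of both groups and ARNT2 (−1.68) in all MTR4 KD libraries. The value of ARNT2 rested on control 2, without which it was 0.28. The calls of HIF1A, HIF3A and ARNT2 were also lost in most fits without 1 library, and with condition as the only term EGLN3 alone of the 5 passed. These are RNA levels, and the amount of HIF protein was not measured in these libraries.

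Some members are also known as targets of ATF4 (DDIT4 and STC2) or of the PPAR factors (ANGPTL4 and PLIN2). Of 17 ATF4 and unfolded protein response targets, 5 were lowered and 6 raised, with a median of 0.02, a lowest value of −0.47 (CHAC1) and a highest of 0.82 (NUPR1). With condition as the only term, 1 of these passed, and it was raised. Of 10 tested PPAR lipid targets, 4 were lowered and 1 raised, with a median of −0.09. The lowest value was −0.57 (CIDEC, a lipid droplet protein), and the 1 raised gene was CPT1A (0.22), which brings fatty acids into mitochondria. With condition as the only term, 1 passed, and it was lowered. Over all genes 2.12% were lowered and 1.48% raised in that fit.

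**Figure D5:**
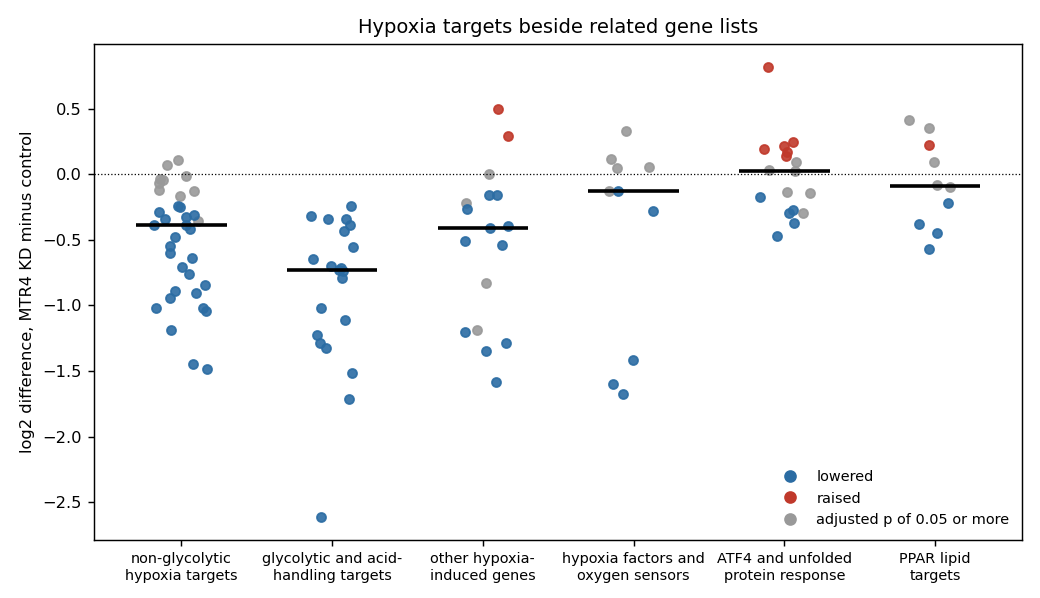
Log2 difference, MTR4 KD minus control, of each tested gene of the members and of 5 related lists (vertical axis), with the horizontal spread of points only for legibility. Blue, red and grey mark lowered, raised and not called genes, and black bars give the median of each list. Medians are −0.39 for the members, −0.73 for the glycolytic and acid-handling targets and 0.02 for the ATF4 and unfolded protein response targets.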

How the data were processed

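Total RNA of 6 libraries of PLC/PRF/5 cells was sequenced by the authors, who deposited 1 table per library with unnormalized read counts for Ensembl genes and for 5 classes of unassigned reads. The submitters' processing notes name HISAT2 2.1.0, HTSeq, DESeq2 and GRCh38, and the strand setting of the counting is not given in the sources used here. Unassigned reads made up 37.7% to 49.3% of all reads and stayed out of library sizes. Symbols, transcript lengths and exon overlaps came from GENCODE v44 lifted to GRCh37, which held 56959 of the 60675 genes, and positions and promoters from RefSeq on GRCh38.p14.

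Genes were kept by filterByExpr of edgeR 4.0.16 (R 4.3.3) with its minimum of 10 counts, scaled by TMM and tested across all 18075 kept genes by the quasi-likelihood test with library class and condition, which left 3 residual degrees of freedom. The class is the share of non-unique reads above or below 30%. The interaction of class and condition was tested in a fit of its own. Genes with an adjusted p (Benjamini-Hochberg) under 0.05 were called. Each standard error (SE) was derived from the test, as the absolute log2 difference divided by the square root of its F statistic. Values within a library class are differences of mean log2 CPM with a prior count of 0.5, and paralog ratios used counts plus 0.5. Python 3.11.15 with pandas 2.3.3, scipy 1.17.1 and matplotlib 3.10.9 made tables, exact tests and plots. The procedure was tested on simulated data with 200 changed genes and the variation that edgeR estimated with the class. At 1.5-fold the fit with the class recovered 153 of them and that with condition alone recovered 0. At 2-fold these numbers were 185 and 120. Unchanged genes were called 9 and 10 times with the class, at 1.5-fold and 2-fold, and 0 times with condition alone. Reads per library (60686786 to 72708682) limit the precision of genes with few counts, such as STC1, ANKRD37, VLDLR and LOX.

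The members, the other lists and the tests were chosen with earlier results of these data known. In the related lists, 2 genes are not reported here and were left out of those lists' counts and medians, though not of the fit. Values in every library are given for members with an adjusted p under 0.05 and an absolute log2 difference of at least 0.5, for MTR4 and for both members of a paralog pair with such a member. Outside this rule they are also given for VEGFA, ANGPTL4, EFNA3, P4HA1, P4HA2, FAM162A and TMEM45A. From other lists they are given for EGLN3, HIF1A, EPO, TTR, ARNT2 and COL1A1. Of other lists at most 4 genes are named, by the largest difference among those called. HIF1A, CPT1A, COL1A1, AFP, CD68, PTPRC and CD3E were named outside this rule, after their values were seen. Alternatives were other terms in the fit, other scalings (DESeq2 size factors, total counts, upper quartile, ACTB), other filters, DESeq2 1.42.0, limma-voom (limma 3.58.1), thinned counts, other thresholds, and each library left out in turn. Leaving out libraries for the paralog ratios was added after seeing the data.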

Additional observations from a re-analysis of the deposited data

Results flagged for a closer look

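No hypoxia target of the list had a knockdown effect that differed between the library classes at an adjusted p under 0.05. In the other lists reported here, 2 genes did. ARNT2, a partner of the HIF alpha subunits, had an interaction of −3.39 (knockdown effect in the libraries with fewer minus that in the libraries with more non-unique reads, on the log2 scale, adjusted p = 0.0106 by edgeR). Its expression was 0.535, 3.26 and 0.348 CPM in control libraries 1 to 3 and 0.489, 0.270 and 0.538 CPM in MTR4 KD libraries 1 to 3, and control 2 alone was high. COL1A1, a collagen gene from the markers of other cells, had an interaction of −1.33 (adjusted p = 0.0137 by edgeR), with 3.73, 4.83 and 4.39 CPM in the control and 3.18, 2.56 and 6.05 CPM in the MTR4 KD libraries. It was lower than in every control library in MTR4 KD 1 and 2 and higher in MTR4 KD 3.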

How the results depend on the processing

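The number of lowered members was 25 of 35, with 16 when condition was the only term (22 by DESeq2). It was 16 with the replicate block in place of the library class, 21 with the replicate block added to it and 26 of 36 with no filter on low counts. With a fold change over 1.5 as well it was 14, and with one over 2 it was 6. When 1 library was left out it was 19 to 24, lowest without MTR4 KD 3. All genes called were 3649, with 650 when condition was the only term (1363 by DESeq2), 857 with the replicate block in place of the class, 2128 with the block added, 6192 relative to ACTB, 787 and 347 with a fold change over 1.5 and 2, and 2409 to 2947 when 1 library was left out. The members' median was −0.39, with −0.23 relative to ACTB and −0.46 to −0.35 when 1 library was left out.

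Of the 25 called members, 15 kept their call and none changed direction in the 19 alternatives fitted per member (thresholds aside). The direction changed for members that were not called. ANGPTL4 was −0.064 with condition as the only term, −0.055 with the replicate block in place of the class and −0.065 by DESeq2 with condition alone, and P4HA2 was 0.033, 0.034 and 0.033 in these 3 fits. WSB1 was 0.0017 with that replicate block. Relative to ACTB, VEGFA was 0.087, P4HA2 0.15, BNIP3 0.031, KDM4C 0.11, ZNF395 0.030, WSB1 0.12 and HIF1A, which is no member, 0.028. With 1 library left out, the ranges were −0.17 to 0.039 for VEGFA, −0.019 to 0.17 for ANGPTL4, −0.12 to 0.045 for KDM4C, −0.10 to 0.040 for WSB1, −0.045 to 0.024 for P4HA2, −0.21 to 0.11 for the LOX to LOXL2 ratio and −3.10 to 0.28 for ARNT2, highest without control 2. The cause of these changes was not tested.

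The replicate numbers did not pair the libraries: deviations from the group means correlated at −0.22 (number 1), 0.30 (number 2) and 0.33 (number 3), and library pairs of the same class at 0.30 to 0.33. Leaving out a library leaves an arm of a class with 1 library or none, assumed to vary like the others. Low counts limit STC1, ANKRD37, VLDLR, PPFIA4 and LOX, and overlap with exons of other genes limits ANKRD37, EFNA3 and ZNF395.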

Other observations

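Of 11 hepatocyte and liver tumor markers, 5 were raised and 2 lowered after MTR4 KD, with 4 that did not pass. TTR, the thyroid hormone carrier transthyretin, had 16.0, 16.1 and 14.7 CPM in the control and 24.9, 29.2 and 31.8 CPM in the MTR4 KD libraries (log2 difference 0.90, adjusted p = 7.22e-06 by edgeR). APOA1, the main protein of high-density lipoprotein, differed by 0.54, ALB by 0.26 and the keratin KRT18 by −0.26. The median of this list was 0.05. With condition as the only term, 3 were raised and 1 was lowered.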
